A study of Rattus norvegicus with 23 samples.

Results

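Rat median nerves that had been cut and repaired with a muscle-in-vein (MIV) graft were compared 7 days later with healthy median nerve, across all gene rows of the count table. The comparison takes 8 of the 23 libraries of the series, the 3 labelled MIV at day 7 and the 5 labelled healthy median nerve. The MIV day 7 libraries came from wild-type adult female rats whose median nerve had been cut to leave a gap of 8 mm, bridged by a graft 10 mm long. The healthy nerves came from wild-type adult female rats that received no treatment and are labelled day 0. No label states that each library is a separate animal. The p-values below therefore compare libraries, whose spread may be technical. Which length of the repaired nerve was collected, and how much of the graft it held, is not given in the sources used here. Other libraries are used beside these 2 groups: MIV at day 3 (n = 3), a second repaired series labelled EV, repaired after the cut without mention of MIV, at day 7 (n = 3), healthy adductor muscle (n = 3) and healthy epigastric vein (n = 3). EV at day 3 (n = 3) entered the fits, for the estimate of the spread between libraries, and is otherwise used only for its share of muscle-enriched counts.

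A MIV graft is a length of vein filled with skeletal muscle, which serves as a conduit for regrowing axons. After a cut, the axons beyond the lesion degenerate, Schwann cells give up their myelin programme for a repair state, macrophages clear the debris, and fibroblasts and vessels grow into the gap. A library of a repaired nerve can therefore hold RNA of nerve cells, of the grafted muscle and vein, and of cells that came in. In bulk RNA, fewer cells of a type and less RNA per cell cannot be told apart.

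The rows of the table carry Ensembl rat identifiers, and 0 of the 32545 could be paired with a gene symbol here. The lists of myelin, repair, muscle, immune and vessel genes fixed by symbol therefore had 0 measured members, and the labelled tissues could not be checked against defining markers. Genes were grouped instead by the healthy tissue that carried them. A gene was called nerve-, muscle- or vein-enriched where that tissue exceeded each of the other healthy tissues by more than 1 log2 unit, with an adjusted p under 0.05. These groups number 1485, 2842 and 1127 genes, and 10500 genes belong to none. They were chosen on these healthy libraries, so a lower level of nerve-enriched genes and a higher level of muscle- and vein-enriched genes are favoured in any comparison with healthy nerve, and their direction is not independent evidence. A smaller set was restricted to 1 tissue, with a mean of at least 10 CPM (counts scaled to library size) there and under 1 CPM in the other 2. It holds 121 nerve-, 178 muscle- and 25 vein-restricted genes. The same limit applies to it, and any group of a tissue is likewise favoured to be lower when set against the healthy libraries of that tissue which chose it.

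The 8 libraries held 13040373 to 16431590 counts. Pearson correlations of log2 CPM across genes were 0.874 to 0.952 between MIV day 7 libraries and 0.976 to 0.980 between healthy nerves, so the repaired nerves varied more among themselves. The median coefficient of variation over the tested genes was 29.9% in MIV day 7 and 15.9% in healthy nerve. On the first principal component of the 8 libraries, which held 73.0% of the variance, the MIV libraries lay at 124, 149 and 145 and the healthy nerves between -85.7 and -79.1. The second component (13.7%) set the MIV libraries apart from each other, with replicate 2 at 104, replicate 1 at -36.2 and replicate 3 at -73.2. Replicate 3 was rich in muscle transcripts and replicate 2 poor in them, so the main counts are also given without each of these libraries.

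Most expressed genes differed between the repaired and the healthy nerve. Of 15954 genes tested, 4654 (29.2%) were higher in MIV day 7 and 4046 (25.4%) were lower, 54.5% in all, by edgeR's quasi-likelihood test with Benjamini-Hochberg adjusted p under 0.05. The median log2 fold change over all tested genes was 0.05. Large changes were common in both directions: 1100 genes were higher and 774 lower by more than 8-fold, and 384 were higher and 268 lower by more than 32-fold. Genes called higher took 48.6%, 53.0% and 53.0% of all counts in the MIV day 7 libraries, against 18.1% to 18.7% in the healthy nerves. Genes called lower took 14.2% to 17.3% in the MIV day 7 libraries, against 49.9% to 51.3% in the healthy nerves. The test chose these genes, so the shares describe how much of the RNA they make up. In 3472 of the genes called higher and 3636 of those called lower, no MIV library overlapped a healthy one, while 23.1% and 24.6% of all tested genes had groups apart in these directions. Without MIV replicate 2 the counts were 3971 higher and 3725 lower, and without replicate 3 they were 4395 and 3943.

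Of the genes called higher in MIV day 7, 28.1% were muscle-enriched, 10.6% vein-enriched, 1.42% nerve-enriched and 59.8% of no tissue group. Muscle-, vein- and nerve-enriched genes made up 17.8%, 7.06% and 9.31% of all genes tested. Of the genes called lower, 28.4% were nerve-enriched, 6.75% muscle-enriched, 2.74% vein-enriched and 62.1% of no tissue group. Most changed genes in each direction therefore did not belong to a tissue group, but neither did 65.8% of all genes tested. The 59.8% and 62.1% are near that share.

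**Figure D1:**
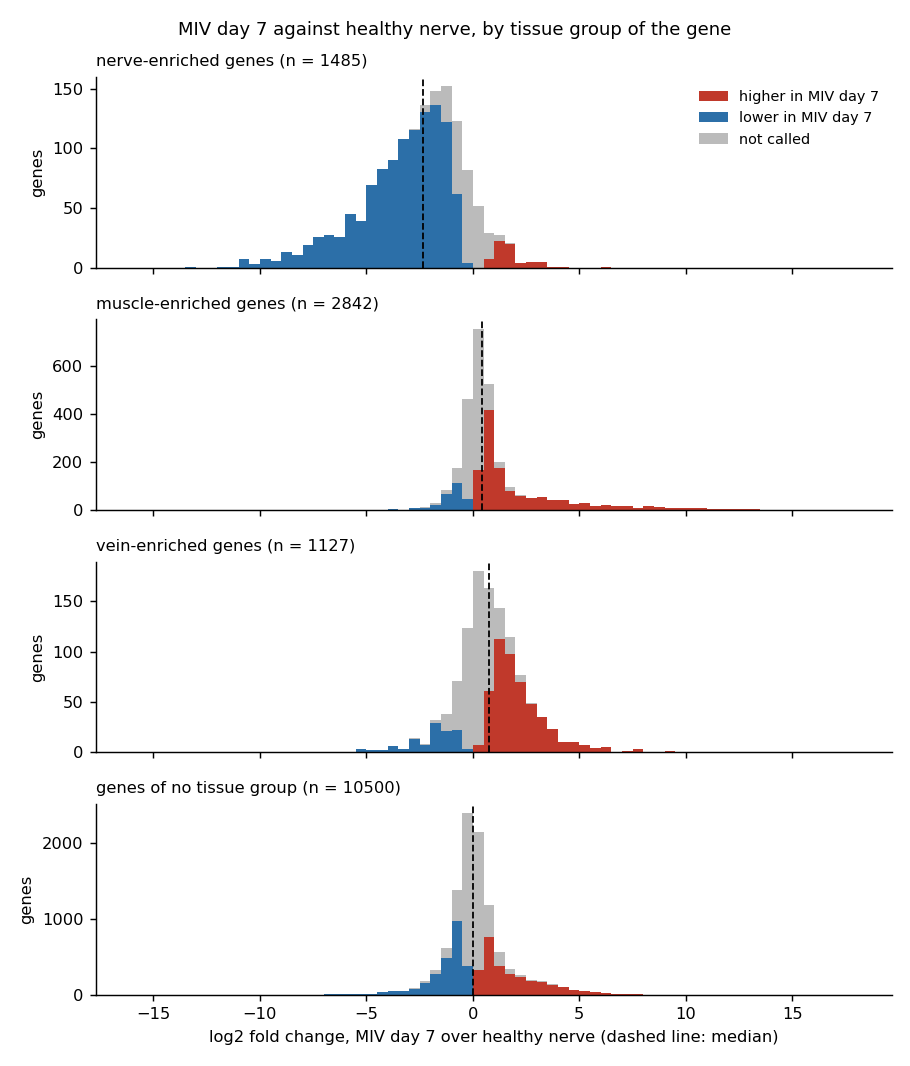
Distribution of the log2 fold change of MIV day 7 over healthy nerve (horizontal axis) in bins of genes (vertical axis, number of genes), for nerve-enriched, muscle-enriched, vein-enriched and remaining genes. Red marks genes called higher in MIV day 7, blue those called lower, grey those not called, and genes with no count in a group stand at their lower bound; the medians (dashed) lie at -2.33, 0.41, 0.75 and 0.01.

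Genes that mark healthy nerve were low in the repaired nerve. Of the 1485 nerve-enriched genes, 1151 (77.5%) were lower in MIV day 7, 66 (4.44%) were higher and 268 did not pass the test. Over all genes tested 25.4% were lower and 29.2% higher. The nerve-enriched genes had a median log2 fold change of -2.33, with quartiles of -4.07 and -1.09. Without MIV replicate 2, 1132 were lower, and without replicate 3, 1103. They took 5.90%, 4.63% and 4.19% of counts in the MIV day 7 libraries, against 25.2%, 25.7%, 27.1%, 25.0% and 28.7% in the healthy nerves, and the groups did not overlap. The mean was 4.90% ± 0.891 (SD, n = 3) in MIV day 7 and 26.3% ± 1.55 (SD, n = 5) in healthy nerve. Falls of more than 8-fold occurred in 582 of these genes, while 286 lay within 2-fold of healthy nerve.

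The more a gene was particular to nerve among the healthy tissues, the lower it stood in MIV day 7. Nerve-enriched genes at 2 to 4 times the level of the next healthy tissue (577 genes) kept a median of 42.1% of their healthy nerve level in MIV day 7. Those at 4 to 16 times (513 genes) kept 16.9%, and those at more than 16 times (395 genes) kept 2.41%. Healthy nerve enters both measures, which favours this order.

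The 121 nerve-restricted genes were chosen for their high level in these healthy nerves, so their values are a description. In MIV day 7, 116 (95.9%) were lower than in healthy nerve, beside 25.4% of all genes tested, 0 were higher and 5 did not pass. Their median log2 fold change was -6.03. The median gene stood at 1.49%, 0.672% and 0.788% of its mean healthy nerve level in the 3 MIV day 7 libraries. In the healthy nerves it stood between 94.2% and 104%. Over the 3 libraries together, 58 of the 121 genes lay under 1% of the healthy level, 7 of these with no count in any MIV day 7 library, and 3 lay above 50%. By comparison, the median nerve-restricted gene stood at 0.635%, 0.550% and 1.31% of the nerve level in healthy vein, a range that overlaps that of MIV day 7. In EV day 7 the median was 1.69%, 1.27% and 1.29%, which also overlaps MIV day 7. The sum over the 121 genes gave another picture. It stood at 2.91%, 3.56% and 3.08% of the healthy nerve level in MIV day 7. Healthy vein had 0.708%, 0.721% and 1.06%, and EV day 7 had 2.69%, 2% and 2.16%. By the sum, every MIV day 7 library thus lay above every healthy vein and EV day 7 library. The overlaps therefore held for the median only. The gap to EV day 7 was narrow, at 2.91% against 2.69%, and a sum leans on its highest genes. In MIV day 7 replicates 1, 2 and 3, 2, 4 and 2 of the 121 genes stood above 50%, against 0 in each EV day 7 library. EV day 7 and MIV day 7 were both set against the same healthy nerves, so these values stand side by side and were not tested against each other here.

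Transcripts of skeletal muscle were higher in MIV day 7 than in healthy nerve, by very different amounts in the 3 libraries. Of the 2842 muscle-enriched genes, 1309 (46.1%) were higher, 273 were lower and 1260 did not pass, with a median log2 fold change of 0.41. They took 24.8%, 17.9% and 37.4% of counts in MIV day 7 replicates 1, 2 and 3, against 14.0% to 17.1% in the healthy nerves. The mean was 26.7% ± 9.87 (SD, n = 3) in MIV day 7 and 15.9% ± 1.18 (SD, n = 5) in healthy nerve, and replicate 2 lay just above the highest healthy nerve. The share was 16.1% to 17.1% in EV day 7 and 17.7% to 19.9% in EV day 3. Replicate 2 thus lay within the range of EV day 3, so its share alone does not set it apart from EV. Many of these genes are also present in healthy nerve. The 1412 at 2 to 4 times the next healthy tissue had a median of 34.6%, 34.2% and 41.9% of their muscle level in MIV day 7 replicates 1, 2 and 3, against 34.0% in healthy nerve. The 510 at more than 16 times had 5.75%, 1.10% and 14.0% in MIV day 7, against 0.560% in healthy nerve, and 404 of these were called higher. Without replicate 3, 1001 of the 2842 were higher and 423 lower, which is over 1.5 times the 273 lower with all libraries.

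Genes found almost solely in muscle separated the groups much further. Of the 178 muscle-restricted genes, 150 (84.3%) were higher in MIV day 7, beside 29.2% of all genes tested, 0 were lower and 28 did not pass. Their median log2 fold change was 6.68, or 6.24 with genes that had no count in healthy nerve set at their lower bound. Summed over the list, the MIV day 7 libraries held 5.83%, 0.481% and 17.6% of the healthy muscle level, against 0.0217% to 0.0255% in the healthy nerves. Every MIV library lay above every healthy nerve, and the median ratio of the highest to the lowest MIV library was 37.0 over these genes. Of the 178 genes, 141 followed the order replicate 3, replicate 1, replicate 2, and replicate 3 was the highest in 91.6%. Without replicate 3, 124 were higher than in healthy nerve, without replicate 2, 152, and in a fit of the 8 libraries alone 84 were. In EV day 7 the same list summed to 0.143%, 0.0550% and 0.0582% of the muscle level.

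In the comparison with healthy adductor muscle, 5540 of all tested genes (34.7%) were higher in MIV day 7 and 4999 (31.3%) lower, 66.1% in all. Of the 2842 muscle-enriched genes 2559 were lower, 253 did not pass and 30 were higher. These genes were chosen for being high in the same muscle libraries, which favours the lower calls. In 17 of the 30, all MIV libraries lay above all muscle libraries. The call as higher favours such a gap, and its share over all tested genes was not computed, so this count is a description. The 30 genes followed no single order of the MIV libraries: 13 were highest in replicate 3, the library richest in muscle transcripts, and 12 in replicate 2, the poorest. Leaving out replicate 2 or replicate 3 gave 32 or 28 such genes.

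Vein transcripts were moderately higher. Of the 1127 vein-enriched genes, 495 (43.9%) were higher in MIV day 7 than in healthy nerve and 111 (9.85%) were lower. Over all genes tested 29.2% were higher and 25.4% lower. The remaining 521 vein-enriched genes did not pass the test, and the group had a median log2 fold change of 0.75. In EV day 7, 717 (63.6%) were higher than in healthy nerve, beside 24.1% of all genes tested. Vein-enriched genes took 7.86%, 6.02% and 5.07% of counts in MIV day 7, against 3.38% to 3.99% in the healthy nerves, with no overlap. The order of the MIV libraries here was not that of the muscle transcripts: replicate 1 was the highest in 51.9% of vein-enriched genes and replicate 3 in 12.4%. Of the 25 vein-restricted genes, 13 (52%) were higher, beside 29.2% of all genes tested, 3 were lower and 9 did not pass. Without replicate 1, 8 were higher. Summed, these 25 genes stood at 14.6%, 21.7% and 11.6% of the healthy vein level in MIV day 7, against 1.19% to 2.16% in the healthy nerves. In EV day 7 they stood at 32.7%, 29.2% and 32.9%. The median vein-restricted gene separated the groups less, at 10.1%, 3.55% and 1.52% of its healthy vein level in MIV day 7 replicates 1, 2 and 3. In the healthy nerves it stood at 1.17% to 2.52%, a range that holds MIV replicate 3, and in EV day 7 at 11.4% to 12.2%. Against healthy vein, where 4071 of all tested genes (25.5%) were higher in MIV day 7 and 3257 (20.4%) lower, 45.9% in all, 76 vein-enriched genes were higher and 689 lower, the direction that their choice on these vein libraries favours.

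**Figure D2:**
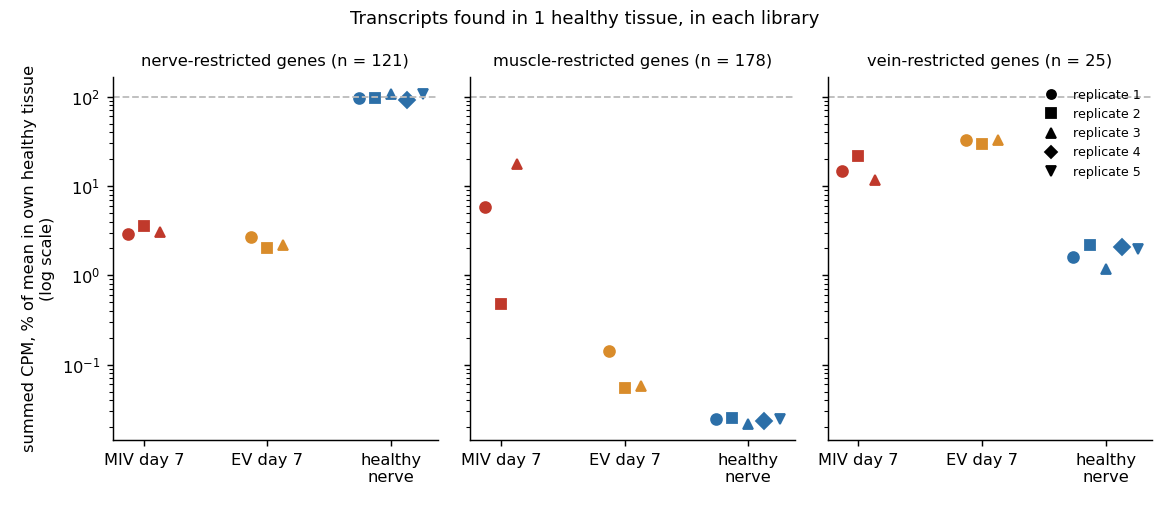
Summed CPM of the nerve-, muscle- and vein-restricted genes in each library, as a percent of the mean in the healthy tissue they belong to (log scale), for MIV day 7, EV day 7 and healthy nerve; marker shapes are replicates and the dashed line is 100%. Nerve-restricted genes lie at 2.91% to 3.56% in MIV day 7, and muscle-restricted genes spread over 0.481% to 17.6% in MIV day 7 while the healthy nerves lie at or under 0.0255%.

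**Figure D3:**
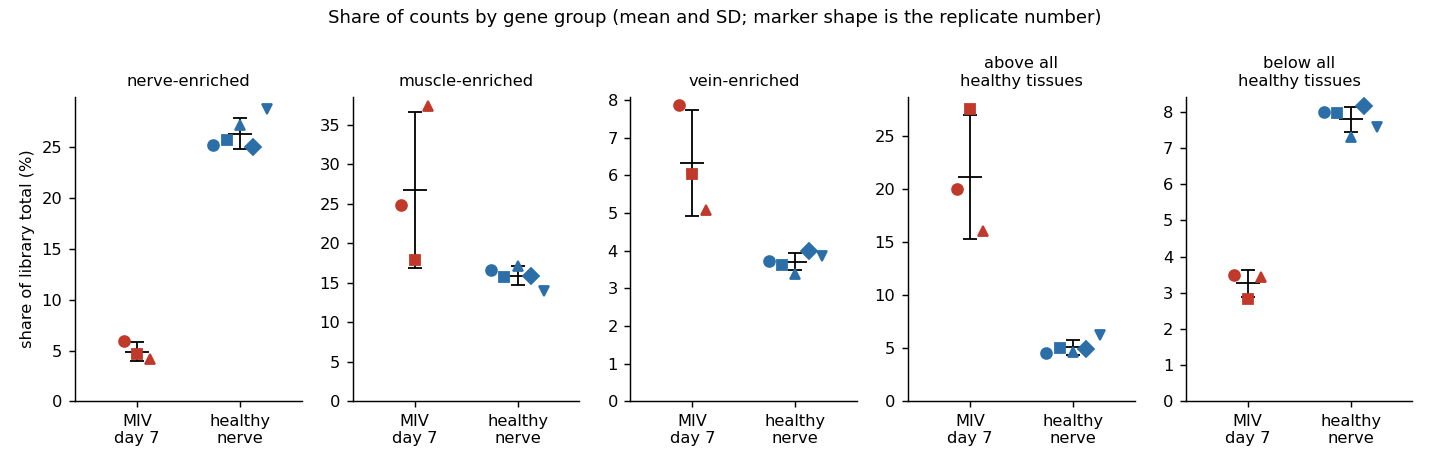
Share of the library total (percent, linear axis from 0) taken by each gene group in the 3 MIV day 7 and 5 healthy nerve libraries; points are libraries and bars the mean and SD. The nerve-enriched share is 4.90% in MIV day 7 and 26.3% in healthy nerve, and the muscle-enriched share has the widest spread in MIV day 7.

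To find transcripts at a higher level than in any of the healthy tissues, genes were sought that stood above all 3. Such genes can still be present in healthy muscle or vein. MIV day 7 was higher than healthy nerve, muscle and vein alike for 1511 genes (9.47% of those tested), and lower than all 3 for 795 (4.98%). Of the 1511, 1339 (88.6%) belonged to no tissue group, 76 were vein-, 66 nerve- and 30 muscle-enriched. Genes of no tissue group made up 65.8% of all genes tested. An enriched gene must exceed the tissue that chose it to enter the 1511, which favours this split. The 1511 genes took 16.0% to 27.5% of counts in the MIV day 7 libraries, against 4.54% to 6.27% in the healthy nerves. Other repaired libraries held similar shares, 18.3% to 20% in EV day 7 and 18.5% to 20% in MIV day 3. In EV day 7, 1251 (82.8%) of the 1511 were also higher than in healthy nerve, beside 24.1% of all genes tested. Of the MIV day 7 libraries, replicate 2, with least muscle RNA, was the highest for 67.3% of the 1511 and replicate 3 for 11.8%. Without replicate 2, 1066 genes lay above all 3 tissues, 990 of them shared with the 1511, and 596 lay below, 528 of them shared with the 795. The median log2 fold change over healthy nerve was 2.41 for the genes above all tissues and -0.96 for those below, of which 414 lay within 2-fold of healthy nerve.

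Some genes were practically absent from one group. A mean of at least 10 CPM in MIV day 7 and under 1 CPM in healthy nerve was found for 240 genes, and the reverse for 162. Of the 240, 123 were muscle-enriched, 16 vein-enriched, 1 nerve-enriched and 100 of no tissue group, and of the 162, 142 were nerve-enriched. All 240 passed the test, as did 161 of the 162, which these levels favour. The 240 genes rest unevenly on the libraries: 131 were highest in replicate 3, 85 in replicate 2 and 24 in replicate 1, and 47 reached 10 CPM in all 3.

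Of the 240 genes, 65 also stood under 1 CPM in healthy muscle and healthy vein. Their median level was 5.17, 35.3 and 4.43 CPM in MIV replicates 1, 2 and 3, and 47 of the 65 were highest in replicate 2. Only 10 of them reached 10 CPM in every MIV library, and without replicate 2 the set shrank to 28 genes. Of the 65, 34 reached 10 CPM on average in MIV day 3 and 22 in EV day 7. In the other direction, 1 gene with at least 10 CPM in all 3 healthy tissues fell under 1 CPM in MIV day 7.

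**Figure D4:**
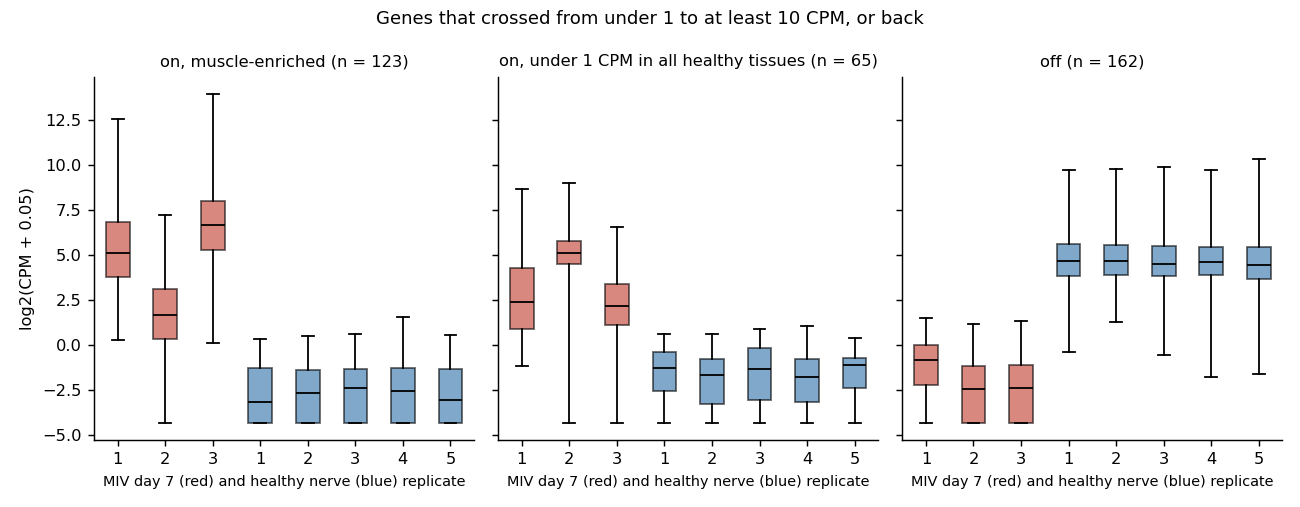
Levels, as log2(CPM + 0.05), of the 123 muscle-enriched genes with at least 10 CPM in MIV day 7 and under 1 CPM in healthy nerve, of the 65 with at least 10 CPM in MIV day 7 and under 1 CPM in all 3 healthy tissues, and of the 162 with the reverse of the first, in each MIV day 7 (red) and healthy nerve (blue) library. Boxes give the quartiles and median and whiskers the full range; the first set is highest in MIV replicate 3 and the second in MIV replicate 2.

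The identifiers at the ends of the comparison are given without names. They were chosen for their size of change in the MIV day 7 libraries, which favours a difference in every other comparison of these libraries. ENSRNOG00000008536, a muscle-enriched gene, had 838, 139 and 3580 CPM in the MIV day 7 libraries and no count in the 5 healthy nerves. It was at least 39997-fold higher in MIV day 7, against a floor of 3 counts over the healthy group (edgeR adjusted p = 1.92e-07), and at least 12862-fold without replicate 3. Its levels had the same order over the MIV libraries as the summed muscle-restricted genes. With a mean of 52.2 CPM in healthy muscle and 0.0168 CPM in healthy vein, it is itself part of that sum, which favours the shared order. Healthy muscle itself had only 92.3, 34.3 and 30.0 CPM, and MIV day 7 was above it by 4.87 ± 0.98 (SE) on the log2 scale (edgeR adjusted p = 0.000447). MIV day 3 had 1088, 320 and 169 CPM, and EV day 7 at most 0.0528 CPM.

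ENSRNOG00000050042, also muscle-enriched, had 244, 24.0 and 1895 CPM in MIV day 7 and no count in healthy nerve. It was at least 18989-fold higher in MIV day 7 (edgeR adjusted p = 7.92e-06), and at least 3533-fold without replicate 3. Healthy muscle had 7.77, 0.653 and 9.15 CPM, below all 3 MIV libraries, with a log2 fold change of 6.93 ± 1.37 (SE) for MIV day 7 over healthy muscle (edgeR adjusted p = 0.000565). MIV day 3 had 4.17, 1.26 and 0.959 CPM, again below all MIV day 7 libraries.

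The largest falls were both in nerve-enriched genes. ENSRNOG00000003746 had no count in any MIV day 7 library and 90.6, 84.8, 110, 82.8 and 93.8 CPM in the healthy nerves, at least 1434-fold lower in MIV day 7 (edgeR adjusted p = 5.62e-09). ENSRNOG00000012821 had 1 count over the MIV day 7 libraries, in replicate 1, and 194, 198, 366, 151 and 424 CPM in the healthy nerves. The ratio of healthy nerve over MIV day 7 was 12002, with a 95% interval of 2154 to 474073 that covers counting error only (edgeR adjusted p = 2.5e-08). Neither gene had a count in MIV day 3.

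Of the genes above all 3 healthy tissues, ENSRNOG00000030187 was high in every repaired library. It had 174, 42.8 and 97.2 CPM in MIV day 7, against 0.246 CPM in 1 healthy nerve and no count in the other 4 (log2 fold change 10.80 ± 0.99 SE, edgeR adjusted p = 1.65e-07). EV day 7 had 256, 242 and 36.3 CPM, which overlaps MIV day 7. ENSRNOG00000009919 had 3.30, 241 and 0.141 CPM in MIV day 7 and no count in any healthy tissue, so its level rested on replicate 2. It was at least 2148-fold higher than healthy nerve (edgeR adjusted p = 0.00103, and 0.012 at the highest over the alternatives). Without replicate 2 the bound was at least 45-fold, with an edgeR adjusted p of 0.00196.

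Below all healthy tissues, ENSRNOG00000054026 had no count in MIV day 7 and 7.50, 5.96, 10.0, 4.48 and 5.61 CPM in the healthy nerves, at least 104-fold lower in MIV day 7 (edgeR adjusted p = 1.93e-05). ENSRNOG00000021410 had no count in MIV day 7 and 0.562 to 1.84 CPM in the healthy nerves, at least 21-fold lower in MIV day 7 (edgeR adjusted p = 0.00063). Both are low genes even in healthy tissue, so these bounds are limited by depth.

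**Figure D5:**
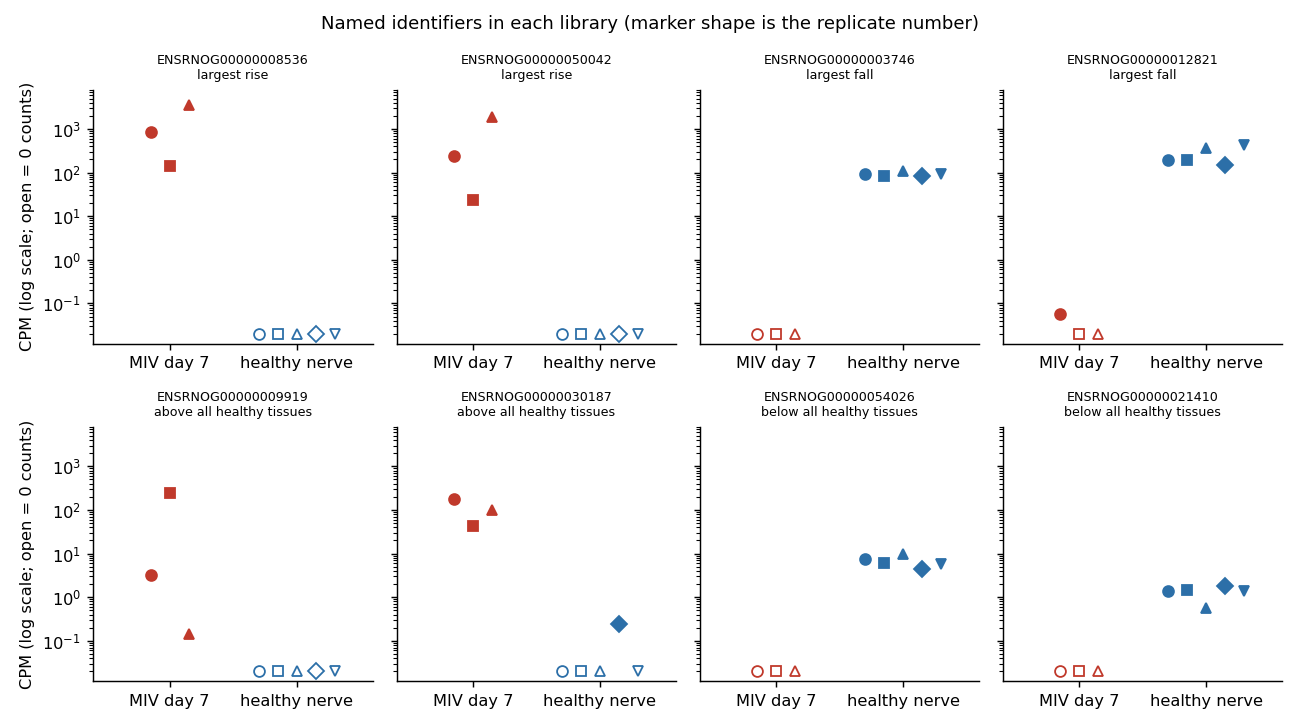
CPM (log scale) of the 8 named identifiers in the 3 MIV day 7 libraries (red) and the 5 healthy nerves (blue), with open symbols at the bottom for libraries with no count. For ENSRNOG00000008536 and ENSRNOG00000050042 all MIV libraries lie far above 0 with replicate 3 on top, and ENSRNOG00000009919 is high in replicate 2 alone.

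The MIV nerve at day 7 was then set beside the MIV nerve at day 3. Against healthy nerve, MIV day 3 was already lower for 3334 (82.4%) of the 4046 genes called lower at day 7. It was already higher for 3443 (74%) of the 4654 called higher. Over all genes tested, MIV day 3 was lower for 30.6% and higher for 30.9%. Both days were set against the same healthy nerves, which favours shared calls. In a fit of the 12 repaired libraries, 1111 of 15036 genes (7.39%) were higher at day 7 than at day 3 and 1216 (8.09%) lower. These counts moved with single libraries. Of the day 3 libraries, leaving out replicate 2 gave 334 higher and 604 lower, and leaving out replicate 3 gave 262 and 542. Of the day 7 libraries, leaving out replicate 1 gave 637 higher, and leaving out replicate 2 gave 1846.

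Among nerve-enriched genes, of which 1164 were tested in that fit, 138 (11.9%) were higher at day 7 than at day 3, 103 (8.85%) were lower and 923 did not pass. Over all genes tested 7.39% were higher and 8.09% lower, so the lower share was near that of all genes. The 138 stood at a median of 27.4% of the healthy nerve level at day 7, against 5.13% at day 3, so they were still below healthy nerve. The 103 stood at 39.4% at day 7, against 112% at day 3. The test between the days chose both sets, which favours these gaps. The 138 became 38 when MIV day 3 replicate 3 was left out and 223 when MIV day 7 replicate 2 was left out. They also became 49 without MIV day 3 replicate 2, or 63 when MIV day 7 replicate 1 was left out. The 103 ranged from 57 (without MIV day 3 replicate 2 or 3) to 156 (without MIV day 7 replicate 2).

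Of the 1511 genes above all healthy tissues, 233 (15.4%) were lower at day 7 than at day 3 and 103 (6.82%) were higher. Over all genes tested 8.09% were lower and 7.39% higher, so the higher share was near that of all genes. The 233 had a median of 422% of the healthy nerve level at day 7, against 2130% at day 3. The 103 had 724% at day 7, against 145% at day 3. Both sets were chosen by the comparison of the days, which favours these gaps. MIV day 7 entered both the choice of the 1511 genes and this comparison, which favours genes higher at day 7. Without MIV day 7 replicate 2 the 233 became 492, and without MIV day 3 replicate 2 or 3 the 103 became 36 or 32.

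Against EV day 7, the repaired group of the same day, edgeR on the 12 repaired libraries called 0 of 15036 genes (0%), with a lowest adjusted p of 0.0606. Before adjustment, 1475 genes were higher and 1039 lower in MIV day 7 at p under 0.05. Same-numbered MIV and EV libraries of day 7 had weakly correlated deviations (r = 0.167 to 0.209), which does not establish that the number pairs them. In a fit that blocks on this number within day 7, 36 genes were higher in MIV and 7 lower. DESeq2 called 639 higher and 229 lower. Without MIV day 7 replicate 2 edgeR called 649 higher and 39 lower, without replicate 1 it called 7 and 9, and without replicate 3 it called 1 and 0. The median log2 fold change of MIV day 7 over EV day 7 was 0.41 for muscle-enriched, -0.55 for vein-enriched and -0.10 for nerve-enriched genes, beside 0.01 for all genes tested. It was far larger for muscle-restricted genes, at 7.38 (130 of 178 genes tested, quartiles 3.82 and 9.63), though 0 of them were called. EV libraries held few of these transcripts, so genes passed the count filter of this fit largely through the MIV libraries. That choice favours the gap, and genes with no count in EV day 7 were not set at a lower bound here. The value is therefore a description. The median was -1.09 for vein-restricted genes (23 tested) and -0.05 for nerve-restricted genes (61 tested). Against healthy nerve, EV day 7 had 3840 genes higher (24.1%) and 3822 lower (24.0%), 48.0% in all. Of the genes called lower in MIV day 7, 3023 (74.7%) were also lower in EV day 7. Of those called higher, 3048 (65.5%) were also higher in EV day 7. The comparisons of MIV day 7 and EV day 7 share their healthy nerves, which favours shared calls. The different counts were not tested against each other.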

How the data were processed

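Per the labels' protocols, 350 ng of TRIzol-extracted RNA entered poly-T selection and a library kit that does not record strand. A gene and its antisense partner thus share reads, and counts of near-identical copies are uncertain. CASAVA and HISAT2 were used, per the submitters' processing notes; how reads were counted, and on which build and annotation, is not given in the sources used here. Raw counts, whole numbers with no scaling, were deposited in 1 table with a row per Ensembl identifier. Each of the 23 columns bears the title of 1 library, and totals over the 23 ran from 12504035 to 17314324.

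The reference gene table used here (GRCr8, 47357 rows) holds Ensembl identifiers in 0 rows, so no gene names, positions or sequences are printed. Tests used edgeR 4.0.16 in R 4.3.3 (filterByExpr, minimum count 10, minimum total 15, TMM factors, robust glmQLFit, glmQLFTest, Benjamini-Hochberg adjustment, threshold 0.05, 1 coefficient per group). Comparisons with healthy tissues used all 23 libraries (15954 genes), and those among repaired nerves the 12 repaired ones (15036 genes), at biological coefficients of variation of 31.4% and 37.1%. CPM values use library sizes times TMM factors and are not corrected for length, so levels are not compared between genes; shares use raw totals. A prior count of 2 was used for log2 CPM. Where a group had no count, folds are lower bounds against 3 counts over the group. Bounds and intervals cover counting error only. No replicate pair of these 2 groups agreed within sampling noise.

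The gene groups, lists and tests were chosen with earlier results of these data known. The rule for named genes asked for an adjusted p under 0.05, at least 10 CPM in the higher group, groups that do not overlap and a symbol, in order of fold change; with no symbols, it allows 2 identifiers in each direction. A second clause takes the identifiers furthest above or below all 3 healthy tissues.

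Replicate numbers are shared by the groups. Correlations of same-numbered libraries' deviations from their group means were 0.209, 0.189 and 0.167 for MIV day 7 and EV day 7, all over 0.1. Differently numbered pairs of these groups had -0.145 to -0.022. Deviations from a mean of 3 libraries are not independent. Between MIV day 7 and MIV day 3, a differently numbered pair reached 0.272, so pairing by number is not established. The main fits had no block on the replicate number. A fit that blocks on it within day 7 was therefore run as an alternative. Alternatives were DESeq2 1.42.0, its size factors in edgeR, TMM factors without muscle-enriched genes, no filter on low counts, other sets of libraries, a replicate block and leaving out each library. The block within day 7 and leaving out MIV libraries from the sets of genes that crossed 1 and 10 CPM and from the bounds of named identifiers were added after the data had been seen.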

Additional observations from a re-analysis of the deposited data

Results flagged for a closer look

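In ENSRNOG00000030187, a gene with 174, 42.8 and 97.2 CPM in MIV day 7, 1 of the 5 healthy nerves (replicate 4) had 0.246 CPM, from 4 counts, and the other 4 had none. With the others at 0 any single count would mark a library in this way, so this is a value near the floor and no sign of an unusual library. The share of counts taken by the 1511 genes above all 3 healthy tissues was 16.0% to 27.5% in MIV day 7, and in healthy nerve it was 6.27% in replicate 5 and 4.54% to 5.02% in the other 4. The gap from replicate 5 to its nearest neighbour was 0.723 of the group's range. Of the 16 sets of healthy nerve values examined this way, chance marks about 1 in 20.

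ENSRNOG00000050042 differed between the days within the MIV series: 244, 24.0 and 1895 CPM at day 7 and 4.17, 1.26 and 0.959 CPM at day 3. The log2 fold change of day 7 over day 3 was 8.435 ± 1.64 (SE; edgeR adjusted p = 0.0129, 12 repaired libraries). All 3 day 7 libraries lay above all 3 day 3 libraries. The gene was named for its high level in these day 7 libraries, which favours a difference from day 3, so the test is no independent support.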

How the results depend on the processing

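For MIV day 7 against healthy nerve, both counts stayed within 1.5 times under each alternative, and 0 called genes changed direction. Leaving out 1 library gave 3971 to 4493 genes higher and 3725 to 3966 lower. Same-numbered libraries of these groups did not deviate together (r = 0.006, -0.083 and -0.046); a replicate block gave 3770 genes higher and 3531 lower. TMM factors without muscle-enriched genes moved the all-gene median by 0.12 on the log2 scale and gave 5340 higher and 3448 lower; the medians of the nerve-, muscle- and vein-enriched genes were then -2.23, 0.54 and 0.85. Genes above all 3 healthy tissues ranged from 1066 to 1678 and those below from 596 to 882 without 1 library. The 8 named identifiers kept their direction and call under each alternative that tested them.

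MIV day 7 against EV day 7 depended on the method. The 23-library fit called 827 genes higher and 308 lower, DESeq2 639 and 229, and the replicate block within day 7 called 36 and 7, while a block over both days called 0. Leaving out 1 library gave 0 to 649 higher and 0 to 39 lower. Against MIV day 3, the 23-library fit called 2279 higher and 1872 lower and DESeq2 2056 higher; leaving out 1 library gave 262 to 1846 higher and 542 to 1722 lower. There the numbers did not pair the libraries (r = -0.067, 0.132 and -0.15). The muscle-enriched share in MIV day 7 was 10.2% ± 8.25 (SD, n = 3) with a threshold of 3 log2 units in place of 1 (9.01%, 2.60% and 19.0% by replicate), against 1.90% to 2.23% in healthy nerve and 2.60% to 2.75% in EV day 7. At the threshold of 1 it was 21.3% to 31.1% when 1 library was left out. The causes were not tested. Depth limits the bounds of genes with no count in a group.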
